A study of Mus musculus with 2 samples.

Results

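Genes of blood clotting were followed in 2 samples of islet grafts, each measured on 1 GeneChip array of the MOE430 2.0 type. The genes were F3, F7, F10, F5, F2, F13a1, Thbs1, Thbd, Procr and Pros1, and they were represented by 14 of 34945 probe sets that carried 1 gene symbol, out of 45037 probe sets other than controls. They were chosen by their role in coagulation, with the ratios between these 2 arrays already known from an earlier look at the data, and Thbs1 also stands among the genes that the study itself listed for its ratio on these arrays. The ratios below are therefore a description, and no ratio serves as independent evidence of a direction. A further probe set carried the symbol Thbs1 together with a second symbol and was not used.

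Both samples held islets of wild-type (WT) C57BL/6 donors, 50 per recipient, grafted under the left renal capsule of a male mouse and taken with their total RNA after 6 hours. In one sample, called the WT graft here, the recipient was a normoglycemic WT C57BL/6 mouse. In the other, the Akita graft, it was a hyperglycemic Akita mouse, heterozygous for a missense mutation of Ins2 that lowers insulin production, without insulin treatment as far as the labels state. Akita recipients of 50 islets without insulin were young adults by the protocol of the study. The ages of the 2 recipients measured here and the number of mice behind each RNA sample are not stated, and the effect of high blood glucose cannot be told apart from that of the Akita genotype. Each condition had 1 array, so no SD, SE or p-value between conditions could be computed.

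Clotting begins when tissue factor, a membrane protein of cells outside the bloodstream and of activated monocytes, meets factor VII, and the pair activates factor X. Factor X with its cofactor factor V turns prothrombin into thrombin, thrombin turns fibrinogen into fibrin, and factor XIII links the fibrin strands. Thrombin bound to thrombomodulin instead activates protein C on its endothelial receptor, and activated protein C with its cofactor protein S stops factor V. The liver makes most of the circulating factors, but macrophages also make several of them. Islets carry tissue factor, and clotting is known to set in where transplanted islets touch blood.

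The values were MAS5 signals, in which the Affymetrix algorithm sums up the probes of a probe set in 1 number on a linear scale. Signals of different probe sets are not comparable, so each was compared only between the 2 arrays, as the ratio of the Akita graft to the WT graft. A signal was regarded as low below the median of its array, 82.9 in the WT graft and 91.5 in the Akita graft, and a probe set as measured when at least 1 signal reached that floor. Where the weaker signal was low, the floor took its place and the fold is written as "at least". Signals were strong in both grafts for islet and kidney genes, such as Ins2, which encodes insulin, at 68738 and 88302, and Kap, a gene of the proximal tubule, at 89517 and 128500, in the WT and the Akita graft. The 18 spiked-in hybridization controls gave signals 1.91-fold higher (median) on the Akita array, and the 3′ over the 5′ probe set of beta-actin, a sign of RNA quality, came to 3.54 in the WT graft and 3.99 in the Akita graft, and that of Gapdh to 1.30 and 1.76. The part of these differences in the results below was not tested.

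Of the 10 genes, 9 were measured, and 5 of these, F7, F10, F5, F13a1 and Thbs1, were over 2-fold higher in the Akita graft. F3, Thbd, Procr and Pros1 differed by no more than 2-fold, and 0 genes were over 2-fold lower. By probe sets, 13 of 14 were measured, of which 9 passed 2-fold upward and 0 downward. Over all measured probe sets with 1 symbol, 4.22% of 21629 passed 2-fold upward and 2.2% downward by the same rule, and nothing is read from the members' share, since their ratios were known when they were chosen. With signals as deposited, the median log2 ratio of the 9 genes was 2.13, against -0.06 for all 12538 measured genes. With the floor, these medians were 2.05 and -0.04. The medians of the gene lists below are of signals as deposited, whereas the counts past 2-fold use the floor. In bulk RNA, more cells that express a gene and more RNA per cell cannot be told apart.

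**Figure D1:**
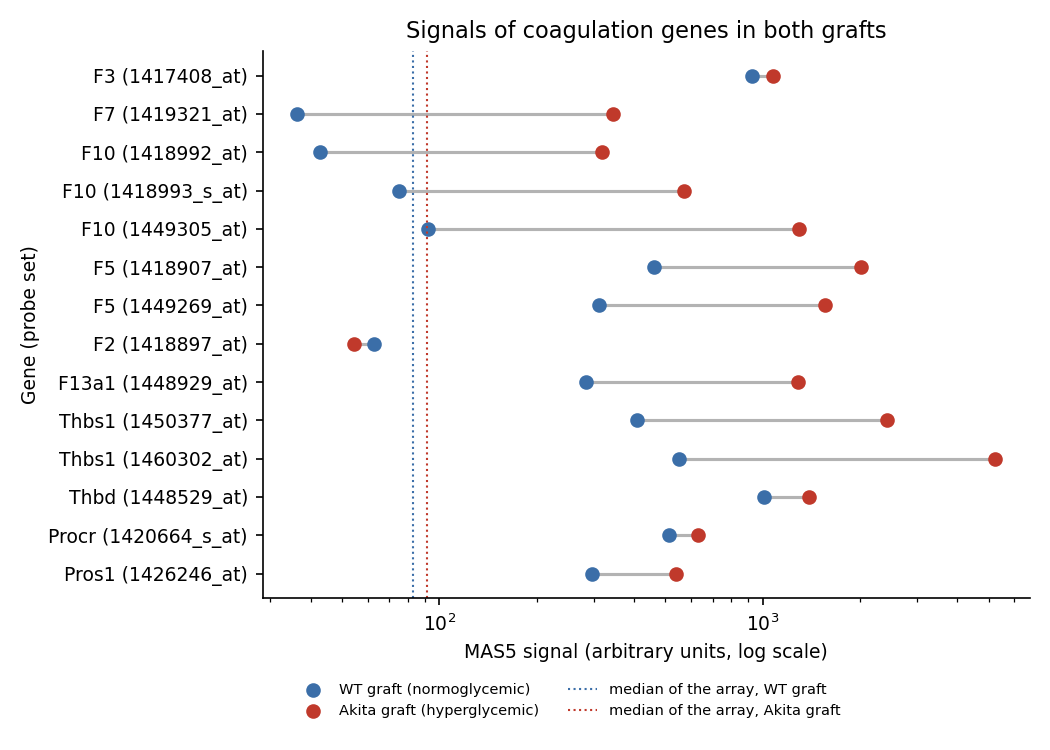
MAS5 signal (x axis, log scale) of the 14 probe sets of the 10 coagulation genes (y axis) in the WT graft (blue) and in the Akita graft (red), 1 array each, with the array medians as dotted lines. The pairs of F7, F10, F5, F13a1 and Thbs1 stand far apart, those of F3, Thbd, Procr and Pros1 close together, and both signals of F2 lie left of the medians.

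The initiating pair differed in their ratios. F3, which encodes tissue factor, had a signal of 925 in the WT graft and 1078 in the Akita graft (1.17-fold). Both signals were thus far above the array medians. F7, which encodes factor VII, the protease that tissue factor binds, had a signal of 36.3 in the WT graft and 344 in the Akita graft. Only the latter was above the median of its array, so F7 was at least 4.15-fold higher, and 9.47-fold with the signals as deposited. Each of the 2 genes had 1 probe set.

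F10, which encodes factor X, had the highest ratio of the 10 genes with signals as deposited, and its 3 probe sets pointed the same way. With the array median added to both signals, the log2 ratio of its brightest probe set was 2.98, against 3.07 for Thbs1. Probe set 1449305_at had a signal of 91.9 in the WT graft and 1291 in the Akita graft (14.1-fold), rank 14 from the top among the 17811 probe sets with 1 symbol and no signal below the median of its array. The WT signal of this probe set was barely above the floor. On 1418993_s_at, whose suffix marks probes shared by several transcripts, the signals were 74.7 and 571 (at least 6.89-fold). On 1418992_at they were 42.8 and 317 (at least 3.83-fold). In the WT graft, F10 therefore lay near or under the floor on every probe set, whereas all 3 signals of the Akita graft were well above it.

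F5, which encodes factor V, the cofactor of factor X, was above the medians in both grafts. Its signals were 462 in the WT graft and 2018 in the Akita graft on 1418907_at (4.36-fold), and 312 and 1553 on 1449269_at (4.98-fold). The 2 ratios differed by 0.19 on the log2 scale. One SD of a single log2 ratio, estimated from pairs of probe sets of the same gene at signals of 256 to 1024, was 0.33. F2, which encodes prothrombin, the substrate of factors X and V, had signals of 62.9 and 54.3, both below the array medians, so no fold is given.

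F13a1, which encodes the catalytic A subunit of factor XIII, had a signal of 285 in the WT graft and 1291 in the Akita graft (4.53-fold, rank 96) on its 1 probe set. Thbs1 encodes thrombospondin 1, a matrix protein that platelets release and that macrophages and endothelial cells also make. Its signals were 552 and 5229 on 1460302_at (9.47-fold, rank 31) and 409 and 2427 on 1450377_at (5.93-fold, rank 67). Both probe sets of Thbs1 were above the medians in both grafts. Their ratios lay 0.67 apart on the log2 scale. The SD of 0.33 given above is that of a single ratio, and a difference between ratios has a larger SD. Whether the size of the Thbs1 ratio depends on the probe set was therefore not settled.

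The genes of the protein C pathway lay closer together. Thbd, which encodes thrombomodulin, had a signal of 1013 in the WT graft and 1389 in the Akita graft (1.37-fold). Procr, the endothelial receptor of protein C, had signals of 513 and 631 (1.23-fold) on a probe set whose suffix marks shared probes. Pros1, which encodes protein S, a cofactor of protein C and a ligand of the TAM receptors, had signals of 295 and 539 (1.83-fold), the value nearest to the limit of 2-fold among the genes under it. All 3 genes were above the array medians in both grafts. F3, Thbd and Procr took log2 ratios of -0.28, -0.05 and -0.21 when the arrays were centred on islet endocrine genes, which lowered the median of all genes by 0.51 on the log2 scale, and they therefore have no settled direction.

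**Figure D2:**
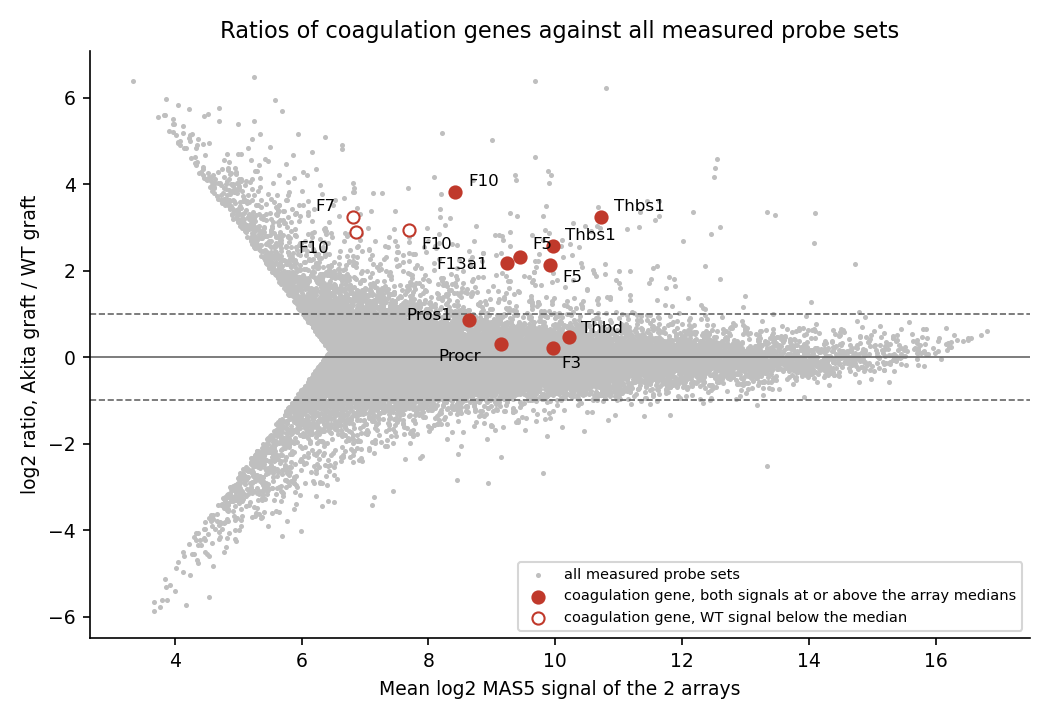
Log2 ratio of the signals, Akita graft over WT graft (y axis), against the mean log2 signal of both arrays (x axis), for all 21629 measured probe sets with 1 symbol (grey) and the 13 measured probe sets of the coagulation genes (red, open where the WT signal was below its array median). Dashed lines mark 2-fold. F10, Thbs1, F5, F13a1 and F7 lie above the upper line, whereas Pros1, Thbd, Procr and F3 lie between the lines, within the grey cloud.

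The scatter between probe sets of 1 gene on these 2 arrays depended on the signal. One SD of the log2 ratio, from the 2 brightest probe sets of each gene, was 1.54 where the lower mean signal was 16 to 64, 0.61 at 64 to 256 and 0.33 at 256 to 1024. This is a spread within the arrays and no replicate error. F7 and the 2 dimmer probe sets of F10 had mean signals in the range of 64 to 256, and the other probe sets over 2-fold were brighter. F3, with a log2 ratio of 0.22, and Procr, with 0.30, lay within 1 such SD of 0. Thbd, at 0.46 with an SD of 0.22 at its signals, and Pros1, at 0.87, lay outside it. Since the spread holds no replicate error, this does not settle the direction of Thbd.

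The promoters of F7 and F10 are shown because the genes lie side by side in RefSeq GRCm38.p6 and were both over 2-fold higher, those of F5 and F13a1 because they were also over 2-fold higher, and that of F3 for comparison. The sequences are the 250 bases before the RefSeq start in GRCm38.p6, 5′ to 3′ on the strand of the gene, with the first of 2 starts for F13a1. RefSeq windows were matched for 8 of the 10 genes. Thbs1 and Thbd were not among them. Capitals mark matches, on either strand, to TGACTCA (the AP-1 motif), GGGCGG (GC box), GAGGAA (core of the PU.1 motif), CACGTG (E-box) or, as the TATA box, TATAAA. Overlapping matches were each counted.
F7 (chr8:13025784-13026033, plus strand): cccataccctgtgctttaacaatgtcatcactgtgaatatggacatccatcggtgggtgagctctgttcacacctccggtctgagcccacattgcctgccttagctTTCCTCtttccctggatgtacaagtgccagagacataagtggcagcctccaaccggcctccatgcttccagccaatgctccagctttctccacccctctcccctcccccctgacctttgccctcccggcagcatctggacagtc
F10 (chr8:13037058-13037307, plus strand): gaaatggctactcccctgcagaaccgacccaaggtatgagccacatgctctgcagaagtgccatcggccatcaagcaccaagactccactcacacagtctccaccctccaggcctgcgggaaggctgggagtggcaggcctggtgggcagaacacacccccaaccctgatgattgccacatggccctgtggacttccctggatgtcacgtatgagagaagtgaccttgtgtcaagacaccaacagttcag
F5 (chr1:164151585-164151834, plus strand): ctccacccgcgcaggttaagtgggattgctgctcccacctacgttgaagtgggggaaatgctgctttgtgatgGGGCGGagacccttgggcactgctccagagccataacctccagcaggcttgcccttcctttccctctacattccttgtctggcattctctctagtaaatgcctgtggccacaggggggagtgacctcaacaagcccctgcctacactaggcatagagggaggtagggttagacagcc
F13a1 (chr13:37050245-37050494, minus strand): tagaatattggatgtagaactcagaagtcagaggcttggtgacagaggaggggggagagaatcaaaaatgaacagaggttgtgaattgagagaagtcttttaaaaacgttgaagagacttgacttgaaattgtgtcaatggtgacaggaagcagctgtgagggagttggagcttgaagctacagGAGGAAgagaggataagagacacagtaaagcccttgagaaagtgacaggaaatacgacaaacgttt
F3 (chr3:121723287-121723536, plus strand): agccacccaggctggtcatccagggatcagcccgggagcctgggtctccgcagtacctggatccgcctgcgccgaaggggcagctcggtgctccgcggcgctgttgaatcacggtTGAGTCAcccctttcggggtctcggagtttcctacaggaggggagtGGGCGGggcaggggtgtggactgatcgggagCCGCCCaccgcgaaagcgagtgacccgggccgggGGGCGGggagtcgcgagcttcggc

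The F3 window held 1 match to the AP-1 motif, beginning 135 bases before the start, and 3 GC boxes. The windows of F7 and F13a1 held 1 match each to the PU.1 core, 144 and 66 bases before the start, and that of F5 1 GC box, 177 bases before it. The window of the other F13a1 start, which is not shown, held no match. None of the searched letters stood in the F10 window. Over all 32851 windows of this length, 4.46% held the AP-1 motif, 32.7% a GC box, 23.3% the PU.1 core, 6.02% the E-box and 12.4% the TATA box. No searched motif stood in the windows of all 4 genes over 2-fold that are shown, though F7 and F13a1 both held the PU.1 core. Of the other genes not shown, the Procr window held 1 match to the AP-1 motif, 154 bases before the start. That of Pros1 held 5 GC boxes, and that of F2 held no match. A match of letters is a description and not a site of binding.

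The other genes of clotting and of its control were taken from lists by role. Of 49 such genes with a probe set of 1 symbol, 38 were measured, 3 were over 2-fold higher in the Akita graft and 1 over 2-fold lower (median log2 ratio 0.14). Over all measured genes, 4.33% passed 2-fold upward and 2.15% downward. In the intrinsic pathway, where clotting starts on surfaces, 3 of 7 genes were measured and 0 passed 2-fold. These were F8, the cofactor factor VIII, at 162 in the WT graft and 119 in the Akita graft, Kng1, a kininogen, at 2815 and 2147, and Klkb1, plasma prekallikrein, at 137 and 83.3. F9, F11, F12 and Vwf, which encodes von Willebrand factor, were below the medians in both grafts.

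Fibrinogen genes differed by no more than 2-fold, beside the ratios of F5, F10 and F13a1. Fga and Fgg, the alpha and gamma chains, had signals of 1656 and 1711 in the WT graft and 2133 and 2356 in the Akita graft, and Fgb, the beta chain, 248 and 167. Tgm2, a transglutaminase of tissues, had 14336 and 19606 (1.37-fold). F13b, the carrier subunit of factor XIII, had signals of 5457 and 5933 (1.09-fold), whereas the A subunit gene F13a1 was 4.53-fold higher. Of the genes that F7, F10, F2 and Pros1 need for their vitamin K-dependent carboxylation, Ggcx, the carboxylase, had signals of 190 and 103, and Vkorc1, which recycles vitamin K, 3595 and 4302. Vkorc1l1, a relative of Vkorc1, had 789 and 1105 (1.40-fold). Lman1 and Mcfd2, which carry factors V and VIII out of the endoplasmic reticulum, were 1.11-fold higher and 1.09-fold lower by value. All 5 genes of this list were measured and 0 passed 2-fold.

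Inhibitors of clotting showed 1 gene past 2-fold, and it was lower. Serpina10, which encodes an inhibitor of factor X, had a signal of 615 in the WT graft and 256 in the Akita graft (2.40-fold lower). Tfpi, the inhibitor of tissue factor and factor VII, had signals of 443 and 463, and the related Tfpi2 2535 and 1360 (1.86-fold lower by value). Proc, which encodes protein C, had 3780 and 3620, and Serpinc1, antithrombin, 232 and 143. Serpind1, heparin cofactor II, was at 20.6 and 128, at least 1.54-fold. Proz, which encodes protein Z, a cofactor of Serpina10, had signals of 205 and 291 (1.42-fold).

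Of 8 measured genes of the plasminogen system, which dissolves fibrin, 2 were over 2-fold higher. Serpinb2, an inhibitor of plasminogen activators that monocytes and macrophages make, had a signal of 2089 in the WT graft and 15163 in the Akita graft (7.26-fold). Plaur, the receptor of urokinase, had signals of 514 and 1240 (2.41-fold), and Plau, urokinase itself, 1834 and 2832 (1.54-fold). S100a10, which binds plasminogen at the cell surface, had 10268 and 16201 (1.58-fold). Plat, tissue plasminogen activator, had signals of 1571 and 1179, Serpinf2, the plasmin inhibitor, had 4886 and 4443, and Plg, plasminogen, was below the medians in both grafts.

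Receptors of the members were largely under 2-fold. F2r, the main thrombin receptor, had a signal of 3596 in the WT graft and 2329 in the Akita graft, F2rl2 120 and 128, and F2rl3 was below both medians. Of the receptors of thrombospondin 1, Cd36 had 3855 and 5821 (1.51-fold), Cd47 3465 and 4870 (1.41-fold) and Itgav 11882 and 18413 (1.55-fold). Itgb3, the integrin subunit that platelets and macrophages carry, had 17.6 and 189, at least 2.28-fold. Among other thrombospondins, Thbs4 had 112 and 159, while Thbs2, Thbs3 and Comp were below the medians in both grafts. Of the TAM receptors, which bind protein S and Gas6, Mertk had 1521 and 1497, Axl 74.8 and 102, and Gas6 itself 7898 and 3949 (2.0-fold lower by value, just under the limit).

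**Figure D3:**
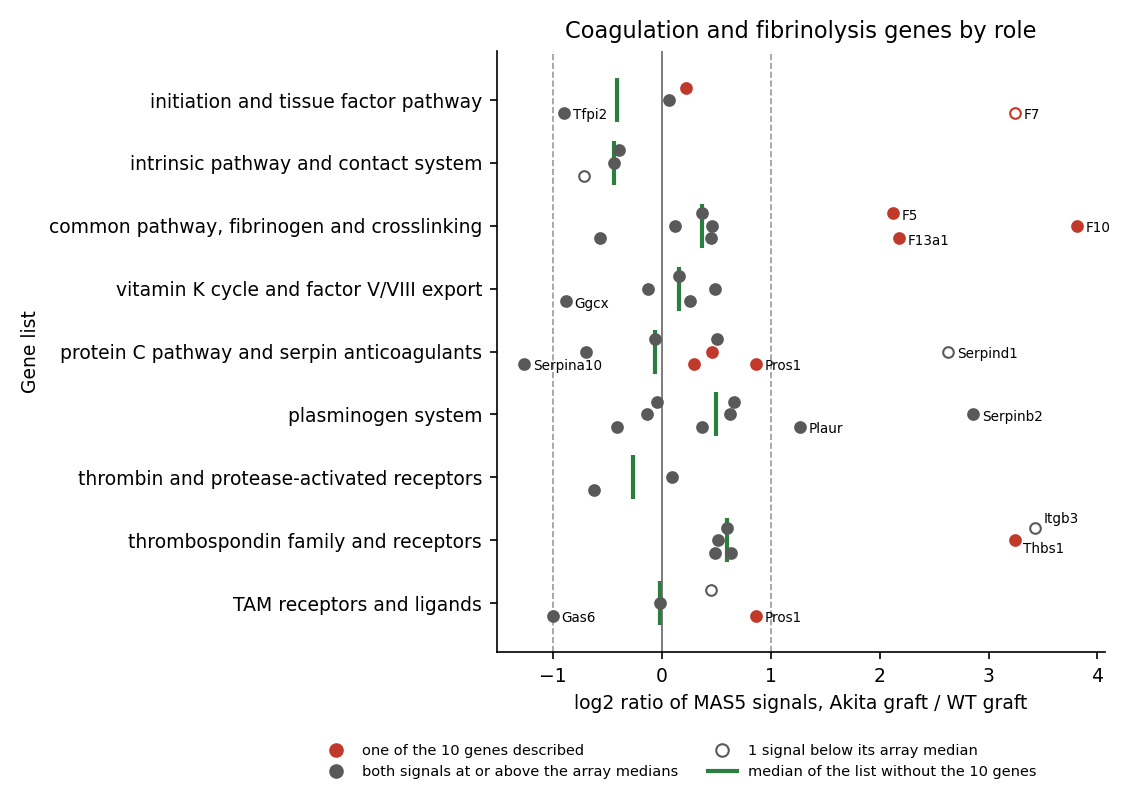
Log2 ratio of the signals, Akita graft over WT graft (x axis), for the measured genes of 9 lists of clotting, its control and fibrinolysis (y axis), with the 10 genes described in red, open symbols where 1 signal was below its array median, and green bars at the median of each list without those 10 genes. The green bars lie between -0.45 and 0.59, and the red points of F5, F13a1, F10, F7 and Thbs1 lie to the right of 2.

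Most markers of macrophages and monocytes, and a part of the platelet markers, were over 2-fold higher in the Akita graft. Of the list of macrophage and monocyte genes, 13 were measured and 12 passed 2-fold upward (median log2 ratio 2.69), with a summed signal of 12410 in the WT graft and 96914 in the Akita graft. Such sums follow the brightest probe sets, here Lyz2, which encodes lysozyme, at 5539 and 55987, and they cover every gene of a list on the array. All 9 measured genes known from resident macrophages of the peritoneum were over 2-fold higher, with sums of 8252 and 71341 over the 10 of the list. Of 8 measured genes of platelets and megakaryocytes, 4 were over 2-fold higher. The sums over all 10 on the array were 2524 and 17134, in which Pf4, platelet factor 4, had 1433 and 14749, and Tubb1, a tubulin of platelets, was at least 3.38-fold higher. The defining platelet gene Itga2b had signals of 228 and 355 (1.55-fold), Gp5 and Gp6 were below both medians, and Gp1bb was at 146 and 108. The study listed Pf4, and Cd14, C1qa and Prg4 of the macrophage lists, for their ratios on these arrays. The marker lists were chosen with earlier results of these data known. The part of these cells in the ratios of F7, F10, F5, F13a1 and Thbs1 was not tested.

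Endothelial, fibroblast and hepatocyte markers were not higher in this way. Of 12 measured endothelial genes, all 12 had lower signals in the Akita graft, 1 of them over 2-fold (median log2 ratio -0.58). The sums over all 13 on the array were 6744 in the WT graft and 4638 in the Akita graft, beside 1.37-fold for Thbd and 1.23-fold for Procr, which endothelium expresses. Of 7 fibroblast genes, all measured, 0 passed 2-fold upward and 3 downward (median log2 ratio -0.95), with sums of 3254 and 1747. These 3 were Col1a2 and Col3a1, which encode collagen chains, 3.31-fold and 2.77-fold lower, and Pdgfrb, a growth factor receptor, 2.64-fold lower. By value, 4 of the 7 were lower and 3 higher. The higher ones were Lum at 18.1 and 116 (at least 1.40-fold), Col1a1 at 64.3 and 111 (at least 1.34-fold) and Dcn at 451 and 517. Of 8 hepatocyte genes on the array 4 were measured and 0 passed 2-fold, and Ahsg, Cps1, Tat and Hpx were below both medians. Alb, albumin, had signals of 393 and 492. Of the mesothelium, 2 of 7 genes were measured, Wt1 at 103 and 135 and Krt19 at 92.4 and 160, and the defining markers Msln and Upk3b were below both medians. Of 10 islet genes, 2 were over 2-fold higher, Gcg, which encodes glucagon, at 10784 and 26023 and Sst, which encodes somatostatin, at 1408 and 3806, and 0 of 7 genes of the proximal tubule passed 2-fold.

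**Figure D4:**
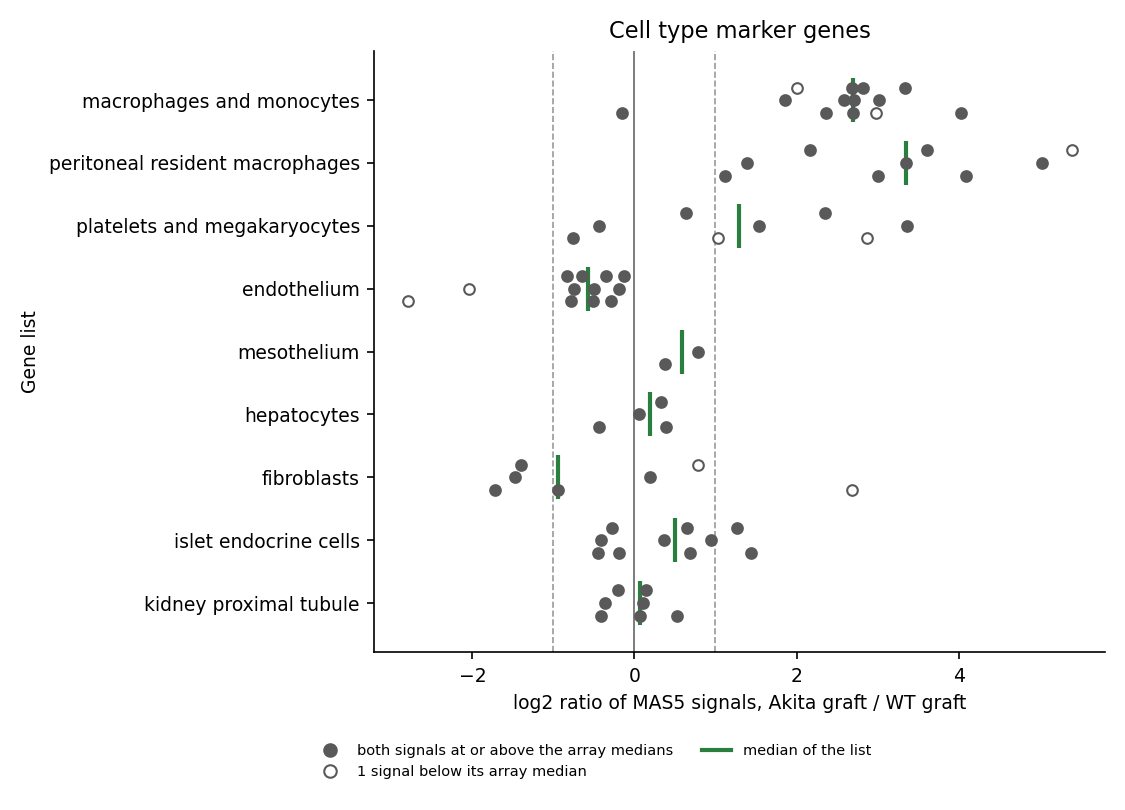
Log2 ratio of the signals, Akita graft over WT graft (x axis), of the measured genes of 9 cell type lists (y axis), with open symbols where 1 signal was below its array median, green bars at list medians and dashed lines at 2-fold. The medians of macrophages and monocytes (2.69) and of peritoneal resident macrophages (3.35) lie to the right, those of fibroblasts (-0.95) and of the endothelium (-0.58) to the left of 0.

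The ratios of the 5 genes held their direction under all 5 other scalings of the arrays. F10 ranged from 9.89-fold to 14.3-fold on 1449305_at, Thbs1 from 6.67-fold to 9.80-fold on 1460302_at and from 4.18-fold to 6.16-fold on 1450377_at, F5 from 3.07-fold to 4.53-fold on 1418907_at and F13a1 from 3.19-fold to 4.70-fold. With a higher floor, the 75th percentile of each array (404 and 402), F7 and 1418992_at of F10 had both signals under the floor and could not be measured. The brightest probe set of F10 then had a log2 ratio of 1.68, below 3.24 for Thbs1 and 2.13 for F5, so F10 kept the highest ratio neither with this floor nor with the array median added.

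**Figure D5:**
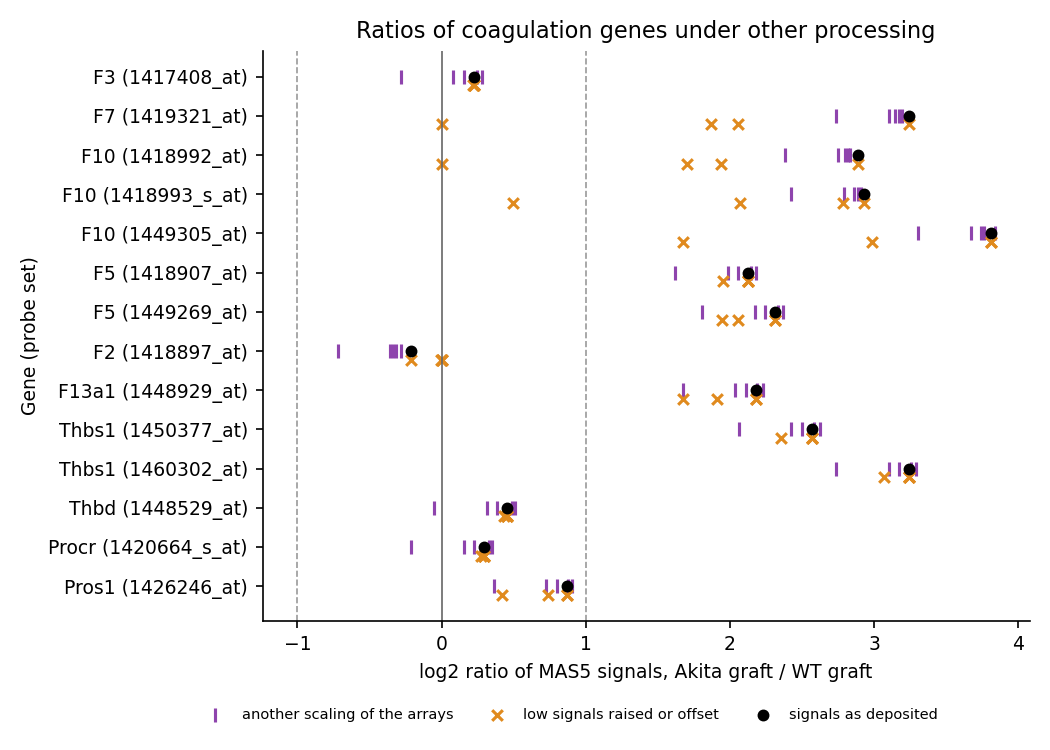
Log2 ratio, Akita graft over WT graft (x axis), of each probe set of the 10 coagulation genes (y axis) with signals as deposited (black), under 5 other scalings of the arrays (purple bars) and with low signals raised or offset (orange crosses). Dashed lines mark 2-fold, and the crosses of F7 and of 1 probe set of F10 at 0 are from the floor at the 75th percentile, where both signals were raised.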

How the data were processed

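Total RNA of 2 islet graft samples, 1 per condition, was labelled and hybridized to 1 MOE430 2.0 array each. The signal intensities deposited by the authors are linear MAS5 values, with version and scaling not stated. For the expression analysis the methods name only the Subio Platform. Columns were assigned to conditions by the sample labels.

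The platform annotation gave 1 symbol to 34945 of 45037 probe sets other than controls, several to 932 and none to 9160. The gene identifiers of all 10 members were found in RefSeq GRCm38.p6 under the same symbol. The table names no build, so only promoters are given coordinates. All probe sets of the members are reported, and other genes by their brightest probe set (mean of the log2 signals). In each list of other clotting genes, up to 3 with the highest and 2 with the lowest ratio were to be named, and further genes were named after their values were seen. Members and lists were chosen with earlier results of these data known. The number of arrays limits the precision.

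Alternatives were other scalings (median, quantile, loess with a span of 0.3 and 3 iterations, centring on islet or on proximal tubule genes), floors, probe set choices and limits of the fold. Ratios and counts were tested on simulated data, in which known changes were put only into signals well above the floor. Low signals, and centring on islet or on proximal tubule genes, were not tested in this way. Python 3.11.15, numpy 2.4.6, pandas 2.3.3, statsmodels 0.14.6 and matplotlib 3.10.9 were used.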

Additional observations from a re-analysis of the deposited data

How the results depend on the processing

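The count of 9 probe sets over 2-fold higher did not change under the 5 other scalings, without a floor, with a floor at the 25th percentile, with the array median added to both signals or with a limit of 3-fold. It was 10 with a limit of 1.5-fold, 8 without probe sets of shared probes, 6 with a floor at the 75th percentile, 5 with 1 probe set per gene and 4 with a limit of 5-fold. These last counts are lower by construction. The count over 2-fold lower was 0 under every alternative run. The median log2 ratio of the measured genes, 2.13, was 1.62 when centred on islet endocrine genes. With the floor at the 75th percentile it was 0.46, with F7 counted as 0 because both of its signals lay under that floor. F7 was thus not measured with that floor, and 0.46 is not a median of measured genes alone. Under the others the median was between 1.87 and 2.18, among them a floor at the array median on the ratios (2.05). That floor was added after the data had been seen. With 1 array per condition, no array could be left out. No paired analysis was possible because each condition had 1 array.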

Other observations

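Genes next to the clotting genes in RefSeq GRCm38.p6 were looked at after the ratios were known, as a description of these 2 arrays. Of 18 protein-coding neighbours that are not among the 10 genes, 12 were measured and 3 were over 2-fold higher in the Akita graft. Over all measured genes, 4.33% passed 2-fold upward by the same rule. Nothing is read from the count of neighbours, since they were looked at with the ratios known. Selp, next to F5, encodes P-selectin of platelets and endothelium and had a signal of 202 in the WT graft and 1064 in the Akita graft (5.28-fold). Ly86, next to F13a1, encodes a partner of a Toll-like receptor homologue on leukocytes and had 227 and 1486 (6.54-fold). The study listed both genes for their ratios on these arrays. Selp had 3 probe sets, of which the brightest is given here, and the ratio that the study listed for it was higher. Cd93, next to Thbd and also in the list of peritoneal macrophage genes above, had 1147 and 3010 (2.62-fold). Thbd itself had 1013 and 1389. Mcf2l and Proz, on the outer sides of F7 and F10, had 560 and 323 and 205 and 291.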
